A study of Mus musculus with 2 samples.

Results

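The 10 miRNA genes Mir770, Mir493, Mir337, Mir540, Mir665, Mir431, Mir433, Mir127, Mir434 and Mir370 make up the proximal part of the imprinted Dlk1-Dio3 locus on mouse chromosome 12, including the genes that lie opposite Rtl1. They were chosen by gene symbol, by a rule that used no measured value, although earlier results of these data were known. They are 10 of the 1973 miRNA gene rows in each count table. All 10 symbols matched a row by Ensembl identifier. The RNA came from adrenal glands of B6NCrl mice at postnatal day 0, and no treatment, mutation or further tissue was part of the design. Each of the 2 libraries held RNA below 30 nucleotides from both adrenals of a littermate, and they are called pup 2 and pup 1. Sex was not collected. Separate pups are named in the labels, yet a donor identifier is shared between them, so the spread between the libraries may be technical if the identifier means a single animal.

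Imprinted genes are expressed mainly from the copy inherited from a given parent. In this locus the protein-coding genes Dlk1 and Rtl1 are expressed from the paternal chromosome, while the noncoding RNAs Meg3 and Rian and the miRNAs are expressed from the maternal chromosome. The miRNAs opposite Rtl1 are fully complementary to its transcript and are known in mouse to direct its cleavage. Rtl1 itself derives from a retrotransposon and is known from the placenta, and Dlk1 is known from the adrenal gland among other endocrine tissues. Neither Dlk1, Rtl1, Meg3 nor Rian was measured here, since the tables count miRNA genes only.

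The 4 genes opposite Rtl1 carried most of the signal, so both mature arms of each are shown, 5′ to 3′, as given by RefSeq on GRCm38.p6. Capitals mark the seed, bases 2 to 8, with which a miRNA pairs to its targets. The tables count reads per hairpin gene, so the arms of a gene cannot be told apart in the values.
miR-431-5p: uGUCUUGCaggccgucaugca
miR-431-3p: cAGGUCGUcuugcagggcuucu
miR-433-5p: uACGGUGAgccugucauuauuc
miR-433-3p: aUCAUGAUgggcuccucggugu
miR-127-5p: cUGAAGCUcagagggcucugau
miR-127-3p: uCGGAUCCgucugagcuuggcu
miR-434-5p: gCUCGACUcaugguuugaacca
miR-434-3p: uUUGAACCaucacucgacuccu

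A search of 141767 GENCODE M21 transcripts found the full complement of each of these 8 mature sequences in transcripts of Rtl1 and of no other gene. The complement of each whole hairpin was also found there, and all 4 hairpins lie within the annotated coding sequence of Rtl1 on the opposite strand. As examples, the Rtl1 stretches that pair with the 3′ arms of Mir127 and Mir433 are shown, with the bases opposite the seed in capitals.
Rtl1 opposite miR-127-3p: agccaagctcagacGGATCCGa
Rtl1 opposite miR-433-3p: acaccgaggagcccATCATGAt

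The genes outside Rtl1 lacked such a partner among these transcripts, apart from Mir337. Its arms are fully complementary to Mir3544, a miRNA gene annotated on the opposite strand at the same place. Across all 10 genes, the 20 mature sequences had 20 different seeds, so none of them shared a seed. Compared with the 1738 mature sequences in RefSeq, only the seeds of miR-540-3p, shared with miR-6915-5p, and miR-370-5p, shared with miR-1193-3p, occurred in another miRNA. No mature sequence came closer than 5 mismatches over its whole length to any other of the 1005 hairpins. The tables leave out reads that map to several loci, 32.2% of all reads in pup 2 and 34.9% in pup 1.

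The arms of Mir431 and Mir434 resemble each other. Those of Mir431 share the 10 bases gucuugcagg, and those of Mir434 share the 9 bases uuugaacca. In the other members the longest shared stretch was 3 to 6 bases. Of 677 mouse miRNA genes with both arms in RefSeq, 9 genes (1.33%) share a stretch of 9 bases or more, a length chosen after the members' values were seen. The GC content of the member hairpins ran from 45.7% for Mir434 to 70.2% for Mir770, with a median of 56.1%, against 51.7% for all hairpins.

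On mm10, in GENCODE M21, Mir770 (ENSMUSG00000076451.1) lies at chr12:109563692-109563785 within Meg3, in an exon of 1 of the 4 transcripts that span it and in an intron of the others. No spliced host is annotated for Mir493 (ENSMUSG00000077025.2, chr12:109580233-109580315), Mir337 (ENSMUSG00000065526.3, chr12:109585789-109585885), Mir540 (ENSMUSG00000072900.1, chr12:109586080-109586146) or Mir665 (ENSMUSG00000076313.1, chr12:109586314-109586407). Opposite the coding exon of Rtl1 lie Mir431 (ENSMUSG00000070080.1, chr12:109590447-109590537), Mir433 (ENSMUSG00000070072.1, chr12:109591715-109591838), Mir127 (ENSMUSG00000070076.1, chr12:109592846-109592915) and Mir434 (ENSMUSG00000070133.1, chr12:109594506-109594599). Mir370 (ENSMUSG00000065433.1, chr12:109618258-109618336) lies in an intron of Rian. All 10 are on the plus strand. The rows of Mir337, Mir540 and Mir127 carry an older identifier version than M21, and RefSeq gives all 10 hairpins the same coordinates as M21.

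The libraries differed in depth, with 3327743 same-strand miRNA gene counts in pup 2 and 1131762 in pup 1. Levels are given as CPM, counts scaled so that each of these totals becomes 1000000. Of miRNAs that mark other cell types, the endothelial miRNA Mir126a was highest, with 102288 and 81620.5 CPM in pup 2 and pup 1. The hepatocyte miRNA Mir122 had 4081 and 2979 CPM, and the myeloid miRNA Mir223 had 883 and 704 CPM. Of the skeletal muscle miRNAs, Mir206 had 411 and 82.2 CPM and Mir133b had 1.20 and 0 CPM. Of the red cell miRNAs, Mir451a had 263 and 261 CPM and Mir144 had 38.5 and 20.3 CPM. The neuronal genes Mir124a-1, Mir124a-2 and Mir124a-3 had 0 counts in both, and a count of 0 leaves room for 0.902 CPM in pup 2 and for 2.65 CPM in pup 1, although their mature sequence is encoded at several loci. The neuroendocrine miRNA Mir375 had 30415 and 37586 CPM. The mRNAs that define adrenal cortex and medulla were not measured, so the labelled tissue could not be checked against them.

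All 10 genes were expressed. Each reached 10 CPM in both libraries, as did 13.9% of all 1973 rows, and each also reached 100 CPM in both, as did 9.02% of all rows. Together they took 2.998% of the miRNA gene counts in pup 2 (95% interval 2.98 to 3.02, exact Clopper-Pearson) and 2.95% in pup 1 (2.92 to 2.98). The mean was 2.97% ± 0.0350 (SD, n = 2). Intervals cover counting error only, because PCR reads without molecular identifiers are not independent molecules. In whole glands, fewer expressing cells and less RNA per cell cannot be told apart.

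The 4 members opposite Rtl1 took 2.65% of all miRNA gene counts in pup 2 and 2.52% in pup 1. That was 88.4% of the counts of the 10 genes in pup 2 (88.2 to 88.6) and 85.6% in pup 1 (85.2 to 85.9). Mir432 and the row that M21 names Mir3071 also lie within Rtl1 and are not in these sums. The 4 members between Meg3 and Rtl1 gave 9.12% of the members' counts in pup 2 and 11.03% in pup 1. Mir770 alone gave 1.14% in pup 2 and 2.02% in pup 1, and Mir370 gave 1.36% in pup 2 and 1.40% in pup 1.

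Mir127, studied in mouse for directing Rtl1 cleavage, had 48136 counts in pup 2 and 15917 in pup 1, or 14465 and 14064 CPM. Its mean of 14264.5 ± 284 CPM (SD, n = 2) ranked 20 among all miRNA genes. This gene alone gave 48.3% of the members' counts in pup 2 (47.9 to 48.6) and 47.7% in pup 1 (47.2 to 48.2), and these intervals overlap. Mir431, studied in mouse muscle progenitors, followed with 8188 CPM in pup 2 and 7174 CPM in pup 1. It averaged 7681 ± 717 CPM and ranked 31 among all genes. Mir127 and Mir431 together held 75.6% of the members' counts in pup 2 and 72.0% in pup 1.

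The other members opposite Rtl1 were lower by a wide margin. Mir433, studied in mouse bone-forming cells, had 1704 CPM in pup 2 and 2402 CPM in pup 1, a mean of 2053 ± 494 CPM. Mir434 had 2136 CPM in pup 2 and 1583 CPM in pup 1, a mean of 1859.8 ± 391 CPM. These neighbours changed places: the ratio of Mir433 to Mir434 within a library was 0.797 in pup 2 (95% counting interval 0.770 to 0.826) and 1.52 in pup 1 (1.43 to 1.61). A ratio within a library does not depend on the scaling. By contrast, the ratio of Mir127 to Mir431 was 1.77 in pup 2 (1.74 to 1.79) and 1.96 in pup 1 (1.91 to 2.01), so the order of that pair was the same in both.

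**Figure D1:**
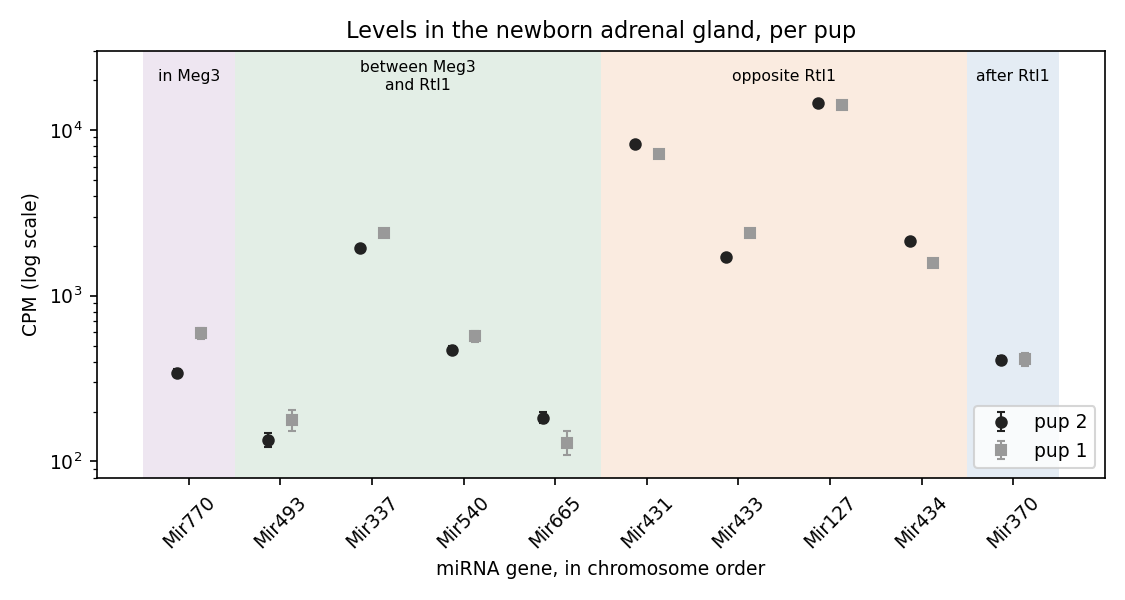
CPM of the 10 genes on a log axis, in chromosome order, with a circle for pup 2 and a square for pup 1, exact Poisson 95% counting intervals as bars, and shading for the position along the locus. Mir127 lies near 14465 and 14064 CPM, and Mir493 and Mir665 lie lowest, below 200 CPM in both pups.

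Among the genes between Meg3 and Rtl1, Mir337 had the highest level. It had 1940.35 CPM in pup 2 and 2378 CPM in pup 1, a mean of 2159 ± 309 CPM, in the range of Mir433 and Mir434. The next gene, Mir540, begins 194 bases after the Mir337 hairpin, yet it had only 473 CPM in pup 2 and 567 CPM in pup 1. Mir665 follows 167 bases after the Mir540 hairpin and had 184 CPM in pup 2 and 129 CPM in pup 1. Read counts of hairpins packed this closely thus spanned a wide range. The ratio of Mir337 to Mir665 was 10.6 in pup 2 (9.71 to 11.5) and 18.4 in pup 1 (15.6 to 21.9). How evenly the libraries captured different miRNAs was not measured. Ratios and orders of different genes, here and elsewhere, are therefore of reads and not of molecules. The ratio of Mir337 to Mir540 moved little, at 4.10 in pup 2 (3.88 to 4.33) and 4.19 in pup 1 (3.84 to 4.58).

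Mir493, studied in human cancer cells, stood at the bottom with Mir665. It had 135 CPM in pup 2 and 177 CPM in pup 1, a mean of 156 ± 29.5 CPM, and Mir665 had the same rounded mean, 156 ± 38.8 CPM. Mir127 was 107-fold above Mir493 in pup 2 (97.7 to 118) and 79.6-fold above it in pup 1 (69.2 to 92.0). At the ends of the row, Mir770 in Meg3 had 343 CPM in pup 2 and 596 CPM in pup 1, a mean of 469 ± 179 CPM. Mir370, which in human liver cells has been tied to fatty acid oxidation, had 409 CPM in pup 2 and 413 CPM in pup 1, a mean of 411 ± 2.58 CPM.

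The order by mean CPM was Mir127, Mir431, Mir337, Mir433, Mir434, Mir540, Mir770, Mir370, Mir665 and Mir493. Neighbours in this order were separate in 4 places, where both pups of the higher gene lay above both pups of the lower: Mir127 over Mir431, Mir431 over Mir337, Mir434 over Mir540 and Mir370 over Mir665. The 5 other neighbouring pairs overlapped, so no order was resolved among Mir337, Mir433 and Mir434, between Mir770 and either Mir540 or Mir370, or between Mir665 and Mir493. Mir540 lay above Mir370 in both pups. A read of a mature miRNA covers the whole molecule, so CPM does not grow with hairpin length. Per 100 bases of hairpin, the mean level was 20378 CPM for Mir127 and 8440.4 CPM for Mir431, and the pairs Mir433 and Mir434, Mir770 and Mir370, and Mir665 and Mir493 each changed places, all of them pairs that overlapped.

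Other miRNA rows lie between these genes and were mostly lower. Of 8 such rows, 6 had a count and 5 reached a mean of 10 CPM, and they took 0.134% of all counts in pup 2 and 0.114% in pup 1. Mir341 led them with 601 and 527 CPM in pup 2 and pup 1, followed by the row that M21 names Mir3071 with 459 and 262 CPM and Mir673 with 239 and 289.8 CPM. Mir3070a had 20.7 and 27.4 CPM, Mir1188 had 19.2 and 27.4 CPM, and Mir3070b had 4.51 and 9.72 CPM. Mir432 and Gm23912 had 0 counts in both. The Mir3071 row carries an older identifier version than M21, and M21 places Mir136, another miRNA opposite Rtl1, on the other strand at the same place with no row of its own. Which of these genes that row counted was not settled.

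The distal miR-379 to miR-410 cluster, which begins well beyond Mir370, was the larger part of the locus. Its 37 rows took 7.34% of same-strand counts in pup 2 and 6.63% in pup 1, without the opposite-strand counts of some rows described below. Its leading rows were Mir411 with 19524 and 13748 CPM in pup 2 and pup 1, Mir487b with 12265 and 11235 CPM and Mir379 with 8925 and 9048 CPM. Mir127 lay between Mir411 and Mir379 by mean CPM. Its order with Mir411 was not resolved, since Mir127 was lower in pup 2 but higher in pup 1, with 14064 against 13748 CPM. Mir431 lay below all 3 of these distal rows in both pups. The median over rows was 1190.1 CPM for the 10 proximal genes, 23.7 CPM for the 8 other rows between them and 245 CPM for the distal rows. The distal rows include 5 without a same-strand count. Among those, Gm25750, Gm25252 and Gm24321 had counts on the opposite strand only, so these medians depend on which rows and which strand are taken.

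The 10 genes gave 28.6% of the same-strand counts of the locus from Mir770 to Mir410 in pup 2 (28.5 to 28.8) and 30.4% in pup 1 (30.1 to 30.7). In 4 distal rows annotated on the minus strand, Mir299b, Gm25750, Gm25252 and Gm24321, the opposite-strand counts were far larger, up to 30339 in pup 2 and 9500 in pup 1 for Gm24321. M21 places Mir299a, Mir380, Mir376a and Mir409 there on the plus strand, with no rows of their own. Taking the larger strand of each row, an alternative chosen after the data were seen, the 10 genes gave 24.9% in pup 2 and 26.7% in pup 1. None of the 10 proximal rows was affected.

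The littermates were then compared to see how steady each gene was. No member reached 2-fold in either direction, 0 of 10. Of the 284 genes that averaged 10 CPM or more, 5.28% did so, 3.52% higher and 1.76% lower in pup 2. At that share few or none of 10 genes would pass, so 0 of 10 does not set the members apart. The lowest member averaged 156 CPM, so the 284 genes also include many at lower levels. The design has 1 library per pup, so no p-value was computed, and only the range of values can be set beside the whole table. Log2 ratios of pup 2 over pup 1, with a prior of 1 CPM, ran from -0.79 for Mir770 to 0.51 for Mir665, with a median of -0.14. Over all 284 genes the median was 0.08, with quartiles at -0.22 and 0.36. The median size of the log2 ratio, regardless of sign, was 0.34 for the members and 0.31 for all genes.

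Mir770 differed most. Its level in pup 2 was 0.576 times that in pup 1 (95% counting interval 0.523 to 0.634). Mir433 stood at 0.709 times (0.677 to 0.743), Mir493 at 0.764 times (0.645 to 0.907), Mir337 at 0.816 times (0.780 to 0.854) and Mir540 at 0.834 times (0.761 to 0.916). The higher genes were Mir665 at 1.43 times (1.19 to 1.72), Mir434 at 1.35 times (1.28 to 1.42), Mir431 at 1.14 times (1.11 to 1.17) and Mir127 at 1.03 times (1.01 to 1.05). Mir370 stood at 0.991 times (0.892 to 1.10), the only interval of the 10 that held 1.

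**Figure D2:**
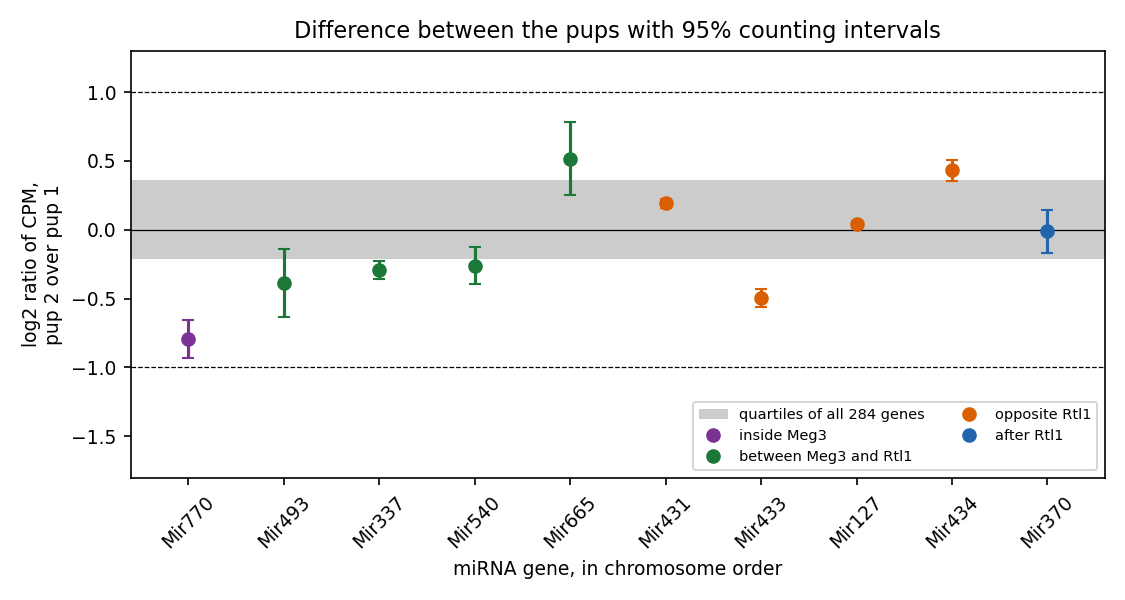
Log2 ratio of CPM in pup 2 over pup 1 for each of the 10 genes, with exact 95% counting intervals, dashed lines at 2-fold and a band for the quartiles of all 284 genes, -0.22 to 0.36. Mir770, Mir493, Mir337, Mir540 and Mir433 lie below the band, Mir665 and Mir434 lie above it, and no gene reaches a dashed line.

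The counting interval of the ratio thus left out 1 in 9 of 10 members, but the same held for 63% of all 284 genes. Higher counts give narrower intervals, and the 284 genes include many at lower levels than any member. The shares are therefore not like for like. In direction, 4 of 10 members were higher in pup 2, against 58.1% of all genes, and 6 were lower, against 41.9%. Mir370 was above 0 under TMM scaling, DESeq2 size factors and all reads as library size, which made it 5 of 10. The share of all genes above 0 was not counted under these scalings, so 5 of 10 cannot be set against 58.1%. The median log2 ratio of all genes rose too, by 0.10 with TMM scaling, 0.03 with DESeq2 size factors and 0.09 with all reads.

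By position, Mir770 and the next 3 of the 10 genes, Mir493, Mir337 and Mir540, had lower CPM in pup 2, and Mir665, which follows Mir540 by 167 bases, had higher CPM. Opposite Rtl1, Mir433 was lower in pup 2 while its neighbours Mir431, Mir127 and Mir434 were higher. The signs therefore mixed within stretches of a few kilobases. The summed level of the 10 genes in pup 2 was 1.02 times that in pup 1, and Mir127 and Mir431 made up most of that sum. Of the marker miRNAs, Mir206 was 5.00 times as high in pup 2 as in pup 1 (4.05 to 6.24), Mir122 1.37 times (1.32 to 1.42), Mir126a of endothelium 1.25 times (1.24 to 1.26) and Mir375 0.809 times (0.800 to 0.818). The myeloid miRNA Mir223 stood at 1.25 times (1.16 to 1.36). Of the red cell miRNAs, Mir451a stood at 1.01 times (0.882 to 1.15), on 874 counts in pup 2 and 295 in pup 1. Mir144 stood at 1.89 times (1.21 to 3.09), on 128 counts in pup 2 and 23 in pup 1. Mir133b of skeletal muscle had 4 counts in pup 2 and 0 in pup 1. The part of these markers in the differences of the 10 genes was not tested.

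**Figure D3:**
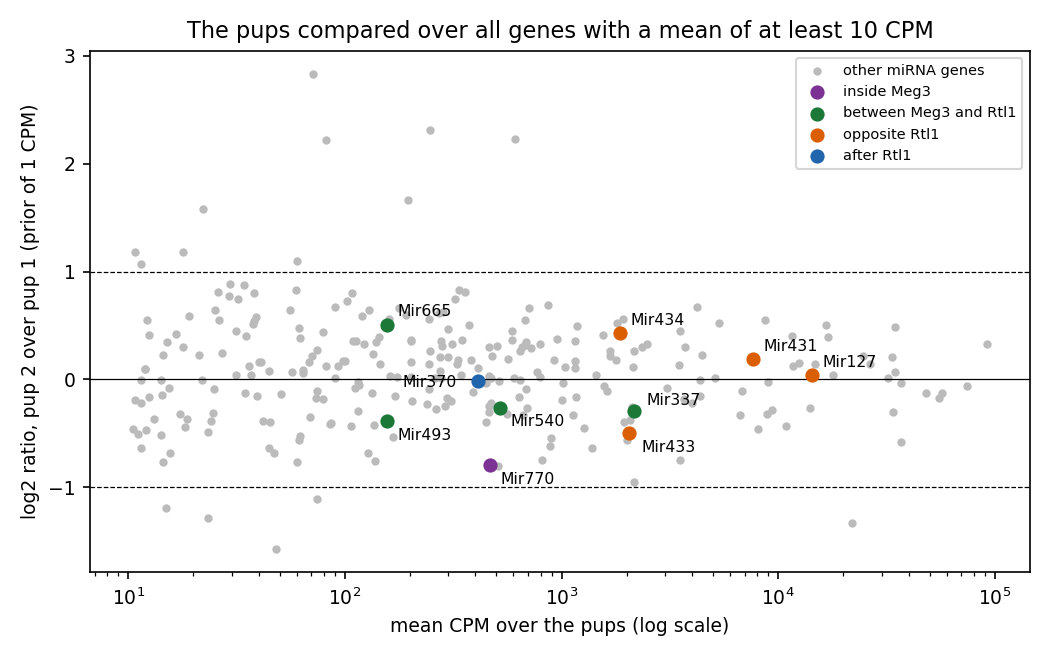
Log2 ratio of pup 2 over pup 1 against mean CPM on a log axis for the 284 genes that averaged 10 CPM or more, with the 10 genes coloured by position and dashed lines at 2-fold. The 10 genes lie within the cloud of other genes, from -0.79 for Mir770 to 0.51 for Mir665.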

How the data were processed

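Small RNA from newborn mouse adrenals was sequenced in 2 libraries. The tables the authors deposited hold raw counts of reads for each miRNA gene, 1 table per library, not pooled or scaled. They rest on mm10 and GENCODE M4, per the labels in the sample notes. No aligner or trimming step is named in the sources used here. Unmapped reads (11.2% in pup 2, 10.6% in pup 1) and multi-mapped reads (32.2% and 34.9%) stayed out of library sizes. So did reads on no same-strand miRNA gene (3.86% and 4.03%), which include reads on the opposite strand of such genes. The same-strand column was used, as CPM over its sum. Symbols came from GENCODE M21 (1894 of 1973 rows matched).

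Ratios of pups have exact conditional Poisson 95% intervals, and shares have Clopper-Pearson intervals. The floor for 0 counts is 3 counts per library. The ratio and interval code was tested on simulated data. TMM (edgeR 4.0.16) and size factors (DESeq2 1.42.0) were alternatives for scaling only; Python 3.11.15 and scipy 1.17.1 did the rest. All 10 members are named, with the rows between them, the leading distal genes and listed markers; with 2 libraries, no gene was sought by likeness of pattern. Members, lists and thresholds were chosen with earlier results of these data known.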

Additional observations from a re-analysis of the deposited data

Results flagged for a closer look

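Mir337 was the only member with more than 3 opposite-strand counts in both libraries. The opposite-strand column, which the levels above do not use, held 123 counts in pup 2 and 56 in pup 1 at Mir337. That was 1.87% of its counts on both strands in pup 2, with an exact 95% interval from 1.56 to 2.23, against 2.04% in pup 1, with 1.54 to 2.64. Summed over all genes the opposite strand held 3.05% in pup 2 and 3.36% in pup 1. A few rows weigh heavily in that sum, so it is not the share of a typical gene. The distal row Gm24321 alone held 30339 of the 104740 opposite-strand counts in pup 2 and 9500 of 39345 in pup 1. Mir3544 is annotated on that strand at the same place and has no row of its own. Its 5′ arm overlaps miR-337-3p by 21 bases and its 3′ arm overlaps miR-337-5p by 17 bases. Both are shown with their seeds in capitals.
miR-3544-5p: aGAAAGGCaucauauaggagcug
miR-3544-3p: aCUCCUGCaugacgccguuccc
Of the other members, 7 had 0 opposite-strand counts in both libraries. Mir127 had 0 in pup 2 and 1 in pup 1, and Mir434 had 1 in pup 2 and 0 in pup 1. Which gene the opposite-strand reads came from was not tested.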

How the results depend on the processing

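All 10 genes stayed detected, and 0 of 10 passed 2-fold, under every setting run. Their mean share of 2.97% moved to 2.88% with the unstranded column, to 1.53% with all reads as library size and to 1.55% without Mir127. Their mean share of the locus, 29.5%, moved to 25.8% both with the unstranded column and with the larger strand of each row, and to 15.4% without Mir127. The count of all genes past 2-fold, 15, became 85 with no filter on low counts and 8 at a mean of 50 CPM or more. Without replicate 1 or replicate 2, the members' share ran from 2.95% to 2.998%, their share of the locus from 28.6% to 30.4% and the share of Mir127 from 47.7% to 48.3%. Log2 ratios of 9 members kept their sign under all settings, and that of Mir370 ran from -0.01 to 0.09. Their sizes depended on the scaling. With TMM scaling those of Mir337, Mir431, Mir433, Mir127 and Mir434 left their counting intervals, that of Mir127 going from 0.04 to 0.15. With all reads as library size those of Mir337, Mir431 and Mir127 did so, and with DESeq2 size factors only that of Mir127. No paired analysis was possible because the series holds a single group. A fit with a replicate block was not possible either. With 1 library per pup, differences between pups have no replicate check, and multi-mapped reads are missing from every level.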
